A study of Homo sapiens with 9 samples.

Results

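The comparison of late with early T cell activation set 3 ribosome profiling libraries made 12 h after stimulation against 3 made 5 h after stimulation, 6 of the 9 libraries of the series. The cells were Jurkat, clone E6-1, a line of human T lymphoblasts, and each group held 3 biological replicates per the labels. Both groups had been stimulated with antibodies to CD3, coated on the plate at 10 µg/mL, and to CD28, added to the medium at 5 µg/mL. The other 3 libraries, from resting cells of the same line labelled 0 h, were used to place the levels at 5 h and 12 h. The series holds no unstimulated library at 5 h or 12 h, so the effect of stimulation apart from time was not tested. Jurkat is a single leukaemic clone, and the 5 h and 12 h groups differ in time after stimulation alone, as far as the labels say.

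Ribosome profiling counts the mRNA fragments that translating ribosomes protect. A gene's footprints therefore follow both the amount of its mRNA and how heavily that mRNA is translated. Stimulation through CD3 and CD28 mimics the meeting of a T cell with antigen. In T cells it is known to set off a short early wave of signalling, transcription factor and cytokine genes, many with unstable mRNAs, and a slower change in genes for growth and division. The deposited tables name genes by versioned Ensembl gene ID alone. No table used here pairs these IDs with symbols, so genes are counted by ID, only 2 IDs that fell and 2 that rose are printed, and neither functions nor T cell markers were assigned to IDs. The 1 functional grouping available by Ensembl ID was a collection of cell cycle markers, described last.

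Footprints moved in both directions between 5 h and 12 h. Of 13920 IDs with enough counts to test, 1620 were higher and 1877 lower at 12 h by edgeR's quasi-likelihood test at a Benjamini-Hochberg adjusted p under 0.05. That is 11.6% higher, 13.5% lower and 25.1% called in all. The balance of the directions depended on the setting, and DESeq2 with its own size factors gave 1950 higher and 1832 lower. In edgeR, the authors' size factors gave 1897 higher and 1678 lower, and upper quartile scaling gave 1749 higher and 1846 lower. The large moves were mostly losses, since more than 8-fold was lost by 38 called IDs and gained by 7. The IDs called lower had taken 30.9% ± 0.366 of all footprints at 5 h (SD, n = 3) and took 21.6% ± 0.0153 at 12 h, while those called higher went from 15.7% ± 0.244 to 23.3% ± 0.0153. These shares describe IDs chosen by the same contrast.

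**Figure D1:**
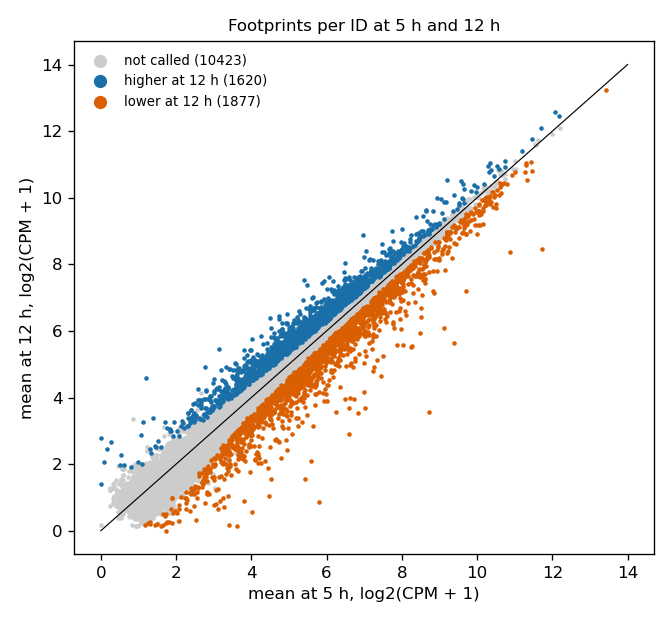
Mean footprint level of each of the 13920 tested IDs at 5 h (horizontal) and 12 h (vertical), each as log2(CPM + 1) over 3 libraries, with the line of equal level; CPM are counts on a scale shared by all libraries. The points farthest from the line lie below it, on the side of loss by 12 h, with 1877 IDs called lower and 1620 called higher.

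The wording of these results depends on depth and on the spread within groups. The 12 h libraries were shallower, with totals of 4343515 to 11153533 counts against 9492122 to 18506509 at 5 h. The biological coefficient of variation, the spread between replicates beyond counting error, was 13.1% among the 12 h libraries and 17.2% among the 5 h libraries. The 5 h and 12 h libraries did not overlap for 39.1% of the tested IDs, against 25.1% called, so lack of overlap alone is not a call.

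The deepest falls took IDs from a marked level at 5 h back to almost no footprints. All printed IDs were chosen for a call and for no overlap between 5 h and 12 h, so both were fixed by the choice. ENSG00000125735.11 stood at 14.3, 8.02 and 11.5 CPM (counts divided by a library size that TMM factors adjust, on a common scale) in the 5 h libraries and at 0.171, 0 and 0.134 CPM in the 12 h libraries. In resting cells it had stood at 0.466, 0 and 0 CPM. Every 5 h library thus lay far above all other libraries, and the 12 h libraries lay within the resting range. Its log2 fold change from 5 h to 12 h was -6.37 ± 0.70 (SE), with an adjusted p of 3.11e-07 by edgeR. Because only 3 counts were left in the 12 h group, the ratio of pooled levels, 87.3-fold higher at 5 h, has a wide 95% counting interval, from 29.7 to 425.

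The second ID was more abundant and kept a trace of its gain. ENSG00000164400.6 stood at 66.6, 44.1 and 52.0 CPM at 5 h and at 1.11, 0.438 and 0.941 CPM at 12 h, and had no count in any resting library. The 3 groups do not overlap. Its log2 fold change from 5 h to 12 h was -5.87 ± 0.29 (SE), with an adjusted p of 2.09e-12 by edgeR. Against a floor of 3 counts over the resting group, its pooled level was at least 483-fold higher at 5 h and at least 8.46-fold higher at 12 h. The 12 h value rests on 13, 2 and 7 counts.

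The largest rise that was even across replicates belonged to an ID that had stayed near its resting level at 5 h. ENSG00000113088.6 stood at 1.05, 0.549 and 0.932 CPM at rest, at 0.706, 1.57 and 1.57 CPM at 5 h, and at 23.2, 24.3 and 22.1 CPM at 12 h. The resting and 5 h libraries overlap, and every 12 h library lies far above them. The log2 fold change from 5 h to 12 h was 4.11 ± 0.32 (SE), with an adjusted p of 1.19e-09 by edgeR. The pooled level was 16.9-fold higher at 12 h than at 5 h, with a 95% counting interval from 12.8 to 22.5.

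The other large rise was uneven. ENSG00000267168.1 stood at 0, 0 and 0.652 CPM at 5 h and at 6.33, 1.53 and 8.07 CPM at 12 h, after 0, 3.08 and 3.63 CPM at rest. The 12 h libraries lie above the 5 h libraries but overlap the resting ones, and the 5 h libraries overlap the resting ones too. Against resting cells its adjusted p by edgeR was 0.0227 at 5 h, where it was lower, and 0.278 at 12 h. Its log2 fold change from 5 h to 12 h was 4.33 ± 1.03 (SE), with an adjusted p of 0.00263 by edgeR and 0.0694 by DESeq2. All 12 of its 5 h counts came from replicate 3. Without that library the ID had no 5 h count, and the fitted value of 8.66 then depends on the small prior count that the fit adds.

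**Figure D2:**
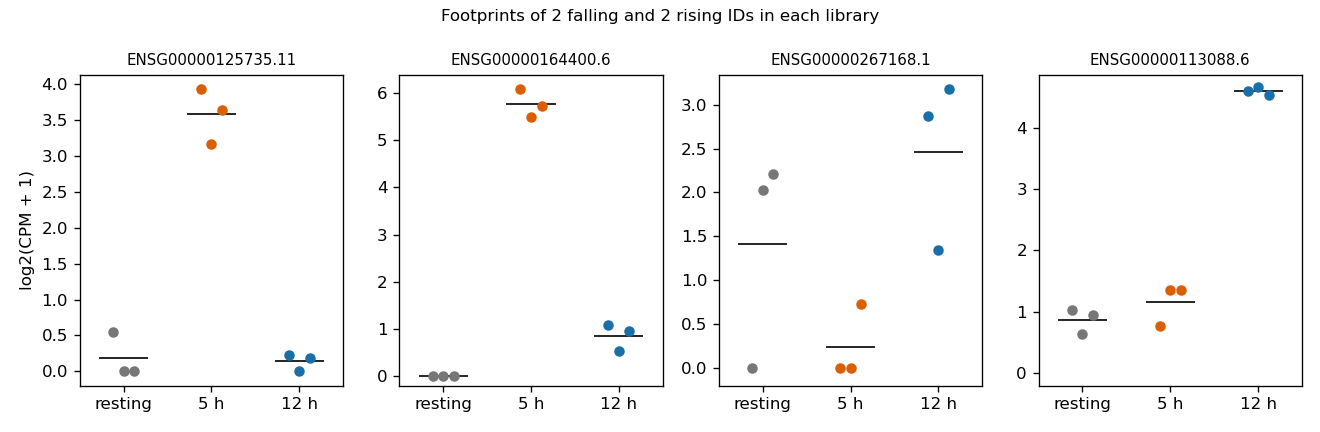
Footprints of the printed IDs as log2(CPM + 1) in each of the 9 libraries (points, 3 per group), with the mean of the plotted values (bars); each panel has its own vertical scale. ENSG00000125735.11 and ENSG00000164400.6 peak at 5 h, ENSG00000113088.6 is high at 12 h alone, and ENSG00000267168.1 is lowest at 5 h with scattered values at rest and 12 h.

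Whether early gains were switched off, kept or extended was described by setting both times beside the resting level. The comparisons with resting cells share libraries with the comparison of 12 h with 5 h, and the courses below were chosen on these levels, so their counts and levels are descriptions with no test of their own. Against rest, 16% of tested IDs were called higher at 5 h and 15.8% at 12 h, and 18.4% and 19.3% were called lower. Of the IDs called higher at 5 h than at rest, 1974 averaged at least 5 CPM at 5 h. For each of these the share of the 5 h gain over rest that was left at 12 h was taken from mean CPM.

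The early gains spread over every outcome. At 12 h, 275 of the 1974 IDs (13.9%) were at or below their resting mean and 106 more (5.37%) kept under 10% of the gain. Another 195 kept 10% to 25%, 320 kept 25% to 50%, 290 kept 50% to 75% and 228 kept 75% to 100%. The remaining IDs had gone past their 5 h mean, 185 of them by up to 25% of the gain and 375 by more.

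IDs with a switched-off course numbered 369. These had a called rise from rest to 5 h and a called fall from 5 h to 12 h, and kept under 10% of the gain. Their median level was 34.4, 34.3 and 32.7 CPM in the resting libraries, 58.2, 58.2 and 59.9 CPM at 5 h, and 30.5, 30.0 and 28.9 CPM at 12 h. The 12 h medians thus lay below all resting medians, and 272 of the 369 IDs had a 12 h mean under their resting mean, 76 of them called lower than rest. The rule admits any level under rest and only a narrow band above it, so it favours levels under rest by itself. Most of the losses from 5 h to 12 h were of moderate size. The median log2 fold change from 5 h to 12 h was -0.89, 156 IDs fell by more than 2-fold and 58 by more than 4-fold. The set held very abundant IDs too, the highest averaging 9572 CPM at rest, 10940 CPM at 5 h and 9557 CPM at 12 h. Only 16 of its IDs averaged under 1 CPM at rest. Switched off thus means loss of the early gain, and mostly not loss of all footprints. The size of this set leaned on 5 h replicate 3, without which 239 IDs met the rule.

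A group of 346 further IDs lost part of the gain, with a called fall from 5 h to 12 h that left 10% or more of it. These included more of the steep early risers, with 97 raised over 4-fold at 5 h against 45 in the switched-off set. Their median level went from 25.1 CPM at rest through 72.8 CPM at 5 h to 41.8 CPM at 12 h, and the median share of the gain left was 28.9%.

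Loss by 12 h was commoner among the steeper early rises. Of IDs that had risen by up to 2-fold at 5 h, 29.1% of 1336 had a called fall by 12 h. The figure was 40.3% of 457 for rises of 2-fold to 4-fold, 70.8% of 89 for 4-fold to 8-fold, 88.2% of 34 for 8-fold to 16-fold and 84.5% of 58 above that. The median share of the gain left fell along the same classes, from 68.2% through 54.2%, 31.9% and 23.1% to 16.3%. Large rises are also easier to call, and the 5 h libraries that set the classes enter the later comparison as well, which by itself favours a move back. Loss was general but not universal among the steepest risers, since 5 of the 58 IDs raised more than 16-fold met the rule for persistence and 2 were called higher still at 12 h.

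**Figure D3:**
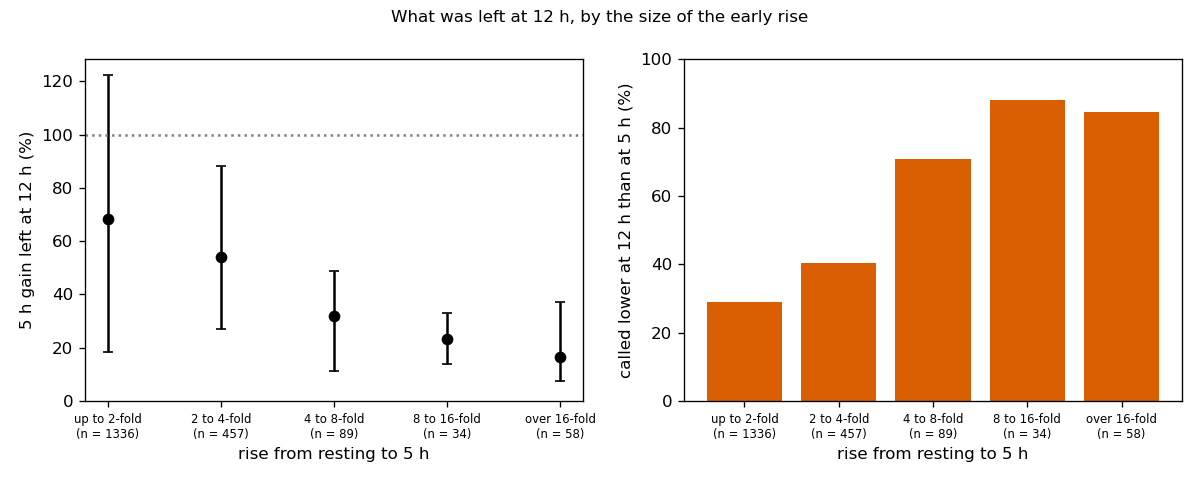
IDs called higher at 5 h than at rest and averaging at least 5 CPM at 5 h, in 5 classes of early rise. The left panel gives the share of the 5 h gain left at 12 h (median, with bars from the first to the third quartile; dotted line at 100%), which falls from 68.2% to 16.3%; the right panel gives the share called lower at 12 h than at 5 h, which is 29.1% in the lowest class and 84.5% in the highest.

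Persistence was asked for more strictly than by a missed threshold. An ID counted as persisting when it was called higher than rest at both times, was not called between 5 h and 12 h, and had a 95% interval of the log2 fold change from 5 h to 12 h inside -1 to 1, that is, a change of under 2-fold either way. This held for 740 IDs. Their median level was 29.9, 27.3 and 28.7 CPM at rest, 47.7, 46.5 and 45.7 CPM at 5 h, and 47.0, 47.5 and 48.5 CPM at 12 h, so the later groups overlap each other and lie above rest. Persistent gains were small, with a median log2 fold change of 0.71 from rest to 5 h, and 16 of the 740 had risen over 4-fold. Small early gains were not particular to persistence. The same median was 0.64 for the switched-off IDs and 1.28 for those that lost part of the gain. The bound of 2-fold is wider than the median gain of the persisting IDs, so the rule does not show that each gain was kept. The share of their gain left at 12 h had a median of 105% and quartiles of 81.0% and 134%. Together the 740 persisting IDs took 4.00% to 4.22% of footprints at rest, 6.84% to 7.35% at 5 h and 7.43% to 7.57% at 12 h.

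Some early gains went on growing. In 134 IDs a called rise at 5 h was followed by a called rise from 5 h to 12 h, with median levels of 48.4 CPM at rest, 73.0 CPM at 5 h and 109 CPM at 12 h. Their later step was of much the same size as the first, with median log2 fold changes of 0.51 and 0.52.

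IDs that came on late numbered 518. These were not called higher at 5 h than at rest, were called higher at 12 h than at both other times, and averaged at least 5 CPM at 12 h. Their median level was 44.8, 45.7 and 43.8 CPM at rest, 40.1, 43.5 and 43.0 CPM at 5 h, and 69.2, 71.2 and 68.5 CPM at 12 h. Of these IDs, 93 had been called lower at 5 h and are counted among the recovered IDs as well. Every 12 h median stands above the other libraries, and the resting and 5 h medians lie close together. A smaller rise by 5 h is not excluded for single IDs, because no bound was set on that change. The late gains were mostly modest, with a median log2 fold change of 0.67 from 5 h, and 96 IDs rose by more than 2-fold and 7 by more than 4-fold. Only 3 of the 518 averaged under 1 CPM at rest, among them ENSG00000113088.6, so the late gains that met the rule mostly added to footprints that resting cells already had. Weak IDs could seldom meet it, since 0.792% of IDs averaging under 1 CPM over the 9 libraries were called between 5 h and 12 h.

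Losses followed similar courses. In 664 IDs a called fall at 5 h was followed by a called rise, after which the 12 h level was not called different from rest on the low side. The median levels of these recovered IDs were 68.6 CPM at rest, 45.6 CPM at 5 h and 74.2 CPM at 12 h. Another 1000 IDs stayed low, with a change between 5 h and 12 h that was not called and an interval inside 2-fold either way, and went from a median of 88.2 CPM at rest to 57.7 CPM and 57.4 CPM. In 695 IDs the fall below rest came late, that is, they were called lower at 12 h than at both other times and not called lower at 5 h. Of these, 75 also belong to the switched-off IDs, having risen first. The 695 IDs had medians of 59.0 CPM at rest, 62.5 CPM at 5 h and 36.6 CPM at 12 h. No bound was set on their change from rest to 5 h, so a smaller fall by 5 h is not excluded for single IDs. The IDs that stayed low were abundant, taking 21.0% to 21.1% of footprints at rest, 15.9% to 16.2% at 5 h and 16.2% to 16.4% at 12 h. These courses were counted among IDs averaging at least 5 CPM at rest.

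**Figure D4:**
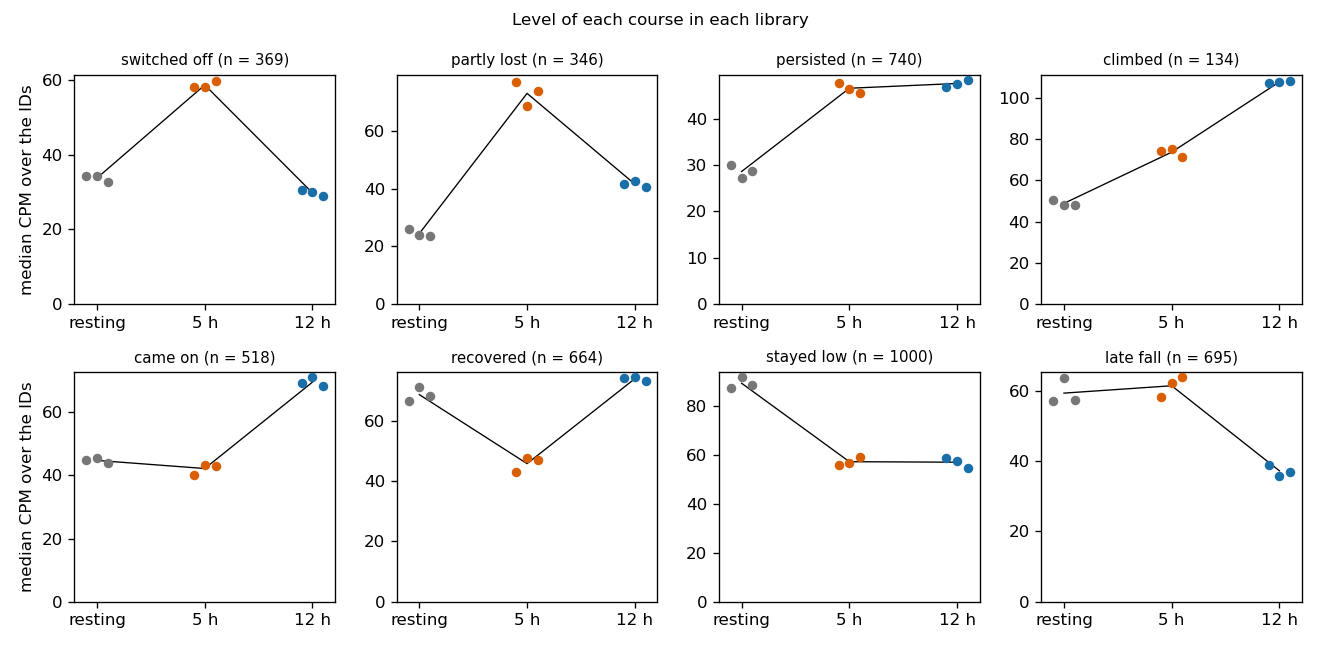
Median CPM over the IDs of each course in each of the 9 libraries (points, 3 per group), with lines joining the group means; the vertical axes start at 0 and differ between panels. The 369 switched-off IDs return from about 58 CPM at 5 h to below their resting medians, the 740 persistent IDs stay near their 5 h level and the 518 that came on have their highest medians at 12 h; the sets were chosen on these levels, and 75 late falls are also switched off and 93 that came on also recovered.

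How much could be seen depended on abundance. Among IDs averaging 64 to 256 CPM over the 9 libraries, 43.4% were called between 5 h and 12 h, and 91.8% had an interval inside 2-fold either way. Among those of 4 to 16 CPM the values were 18.7% and 52.1%, and among those under 1 CPM 0.792% and 0. Over all tested IDs, 8133 (58.4%) had a change bounded within 2-fold, 2018 of them called. For 4308 IDs the change was neither called nor bounded within 2-fold, so these data do not say whether they moved. Weak IDs leaned to lower values at 12 h, with a median log2 fold change of -0.18 under 1 CPM and -0.20 from 1 to 4 CPM, against 0.00068 from 16 to 64 CPM and 0.015 from 64 to 256 CPM. Of calls among IDs of 4 to 16 CPM, 297 were lower and 171 higher, while the directions were nearly even at 16 to 64 CPM, with 693 lower and 701 higher.

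Some IDs had footprints at only 1 of the 2 times. With no count in any 12 h library, 103 IDs had a count in all 3 of the 5 h libraries, and 62 IDs had at least 20 counts there, up to 530. The reverse, no count at 5 h, was seen for 14 IDs with a count in all 3 of the 12 h libraries and for 6 IDs with at least 20 counts. The 12 h libraries held 22498145 counts together and the 5 h libraries 41025393, so an absence at 12 h is the less firm. A count of 0 allows a level of up to 0.133 CPM over the 12 h group and 0.0731 CPM over the 5 h group.

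A set of 55 abundant IDs, which average at least 1000 counts and have a count in every library but do not appear in the authors' deposited log2 table, lost further ground. Between 5 h and 12 h, 37 of them fell and 3 rose by the test, beside 13.5% lower and 11.6% higher among all tested IDs. Abundant IDs were called more often in either direction, 43.4% from 64 to 256 CPM and 46.6% above 256 CPM, against 25.1% of all. Lower calls outnumbered higher ones above 256 CPM and nearly equalled them from 64 to 256 CPM. The part of abundance in the calls of the 55 IDs was not tested. The median log2 fold change of the 55 IDs was -0.47, within a range from -5.31 to 0.91. Their joint share of footprints was 4.62% to 5.29% in the 5 h libraries and 3.83% to 3.91% in the 12 h libraries, with no overlap. The set was first noted in earlier results from these data.

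Cell cycle markers gave the 1 view by function. The markers, distributed with the scran package, are pairs of genes whose order of expression differs between cells of known phase. An ID was listed under a phase when it was the higher member of most of its pairs in that phase and in no other. This gave 232 tested G1 IDs, 236 S phase IDs and 173 G2M IDs, G2M standing for the interval before division and mitosis. The lists were drawn up after the data were seen and are described by counts alone.

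Each phase list moved in both directions between 5 h and 12 h. Of the G1 list, 36 were called higher and 50 lower. The S phase list had 37 higher and 41 lower, and the G2M list 32 higher and 27 lower. The shares called in all, 37.1%, 33.1% and 34.1%, stand above the 25.1% of all tested IDs. The listed IDs were also more abundant, with median levels of 57.0 to 81.3 CPM against 21.6 CPM. The abundance class of 64 to 256 CPM, which holds the G1 and S medians, had 43.4% called. The class of 16 to 64 CPM, which holds the G2M median, had 32.8% called. The median log2 fold changes were -0.036 for G1, 0.0051 for S and 0.053 for G2M, against -0.047 over all tested IDs. Called moves of more than 2-fold were few, as among all tested IDs, with 0.862% of the G1 list, 1.27% of the S list and 1.16% of the G2M list raised, against 1.67% of all, and 2.16%, 1.69% and 2.31% lowered, against 3.39% of all.

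The leaning of the G1 and S phase lists to lower calls depended on the setting, as it did for all tested IDs. It turned round without 5 h replicate 3, to 40 higher and 33 lower for G1 and 35 higher and 27 lower for S, where all tested IDs also turned, to 1495 higher and 1341 lower. With every library kept it turned with the authors' size factors, to 45 higher and 43 lower for G1 and 45 and 35 for S, and with limma on the log2 table, to 48 and 44 for G1 and 48 and 38 for S. It also turned in the fit of the 6 libraries alone, to 49 and 48 for G1 and 46 and 40 for S. With DESeq2 the S list alone turned, to 46 and 41, and with at least 50 counts in 3 libraries it had 48 and 40 while G1 had 49 of each. The leaning of the G2M list to higher calls was lost in the test against a 1.5-fold change, with 1 higher and 6 lower, and without 5 h replicate 1, with 29 of each. Set against rest, the same lists held more falls than rises at both times. All tested IDs did so by a narrower margin, with 16% raised and 18.4% lowered at 5 h and 15.8% and 19.3% at 12 h. At 5 h, 40.1% of the G1 list, 31.4% of S and 37.6% of G2M were lowered, and 11.6%, 20.3% and 10.4% raised. At 12 h, in the same order, 39.7%, 31.4% and 31.2% were lowered, and 13.4%, 15.3% and 11% raised. The G2M list had 18 IDs higher and 65 lower at 5 h and 19 higher and 54 lower at 12 h, the G1 list 27 and 93 at 5 h and 31 and 92 at 12 h, and the S phase list 48 and 74 at 5 h and 36 and 74 at 12 h. These 2 comparisons share the resting libraries, and the part of the listed IDs' greater abundance in these calls was not tested. A changed number of cells in a phase and a changed level in each cell cannot be told apart in bulk footprints, and this holds for every count given here.

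**Figure D5:**
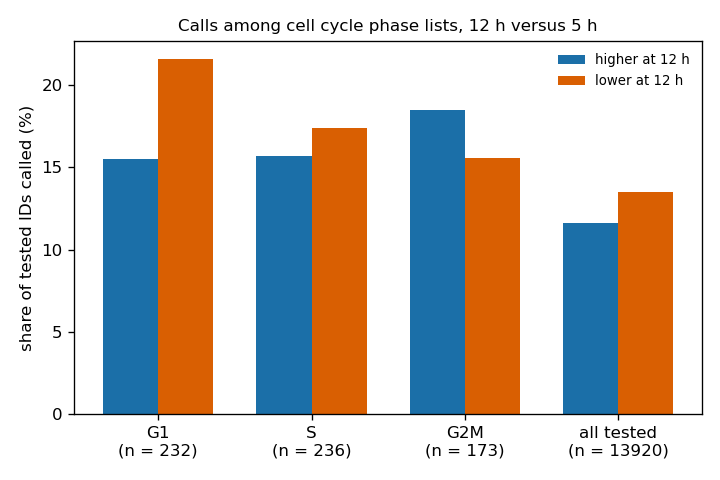
Share of tested IDs called higher or lower at 12 h than at 5 h in the G1, S and G2M marker lists and among all tested IDs, with the number of IDs under each pair of bars. G1 has more lower than higher calls (21.6% and 15.5%), G2M more higher than lower (18.5% and 15.6%), leanings that turn with some scalings, tests or left-out libraries, and all 3 lists exceed the 11.6% and 13.5% of all tested IDs, which are less abundant.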

How the data were processed

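Footprint counts came from 9 libraries of Jurkat cells (3 resting, 3 at 5 h, 3 at 12 h). The deposited count table gives whole-number counts per Ensembl gene ID for 19569 IDs, not normalized. Build GRCh38.p13 and the tools RSEM, Bowtie, bedtools, DESeq2 and cutadapt 3.2 are listed, in no order, per the submitters' processing notes. How footprints were isolated, which annotation was used and how fragments matching several genes were handled is, in the sources used here, not stated, so IDs with near-identical copies are uncertain. A second deposited table holds log2 values by the authors, equal to log2 of the scaled count plus 1 to within 5.03e-09, and served as an alternative.

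All 9 libraries entered 1 edgeR 4.0.16 fit in R 4.3.3 (TMM scaling, filterByExpr, quasi-likelihood test, Benjamini-Hochberg over 13920 IDs, threshold 0.05). SEs and 95% intervals follow from the F statistic. CPM use the TMM factors, so changes are relative to the scaled library. Counting intervals are exact and, like floors of 3 counts, cover counting error only. The procedure was tested on simulated data. Members, lists and rules were chosen with earlier results of these data known. The rule for printed IDs was the largest log2 fold changes among called IDs without overlap between the 5 h and 12 h libraries and with at least 5 CPM in the higher group. It also asked for a symbol, which no ID had, and was applied without that demand, to 2 IDs in each direction. Gene lists by symbol, also prepared, were not used here. Phase lists came from scran 1.30.0. Alternatives were DESeq2 1.42.0, limma 3.58.1 on the log2 table, other scalings and filters, the 6 libraries alone, a replicate block, a test against a 1.5-fold change, libraries left out in turn, identical IDs kept once and a stricter phase list, of which the authors' size factors and the last 2 were chosen after seeing the data.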

Additional observations from a re-analysis of the deposited data

Results flagged for a closer look

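The change from rest differed between the 2 times for each printed ID, tested as 12 h against 5 h by edgeR. The printed IDs were chosen by that same contrast, so the choice itself fixed that each would differ. For ENSG00000125735.11 the log2 fold change against rest was 6.14 at 5 h and -0.22 at 12 h, a difference of -6.37. For ENSG00000164400.6 it was 12.12 and 6.26, a difference of -5.87. The fitted values of this ID depend on the prior count, because it had no resting count. For ENSG00000113088.6 it was 0.65 and 4.76, a difference of 4.11. For ENSG00000267168.1 it was -3.07 and 1.26, a difference of 4.33, and its call was lost with DESeq2.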

How the results depend on the processing

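Apart from a test against a 1.5-fold change (glmTreat), which asks for more than any change, each alternative that left in all libraries of both times kept within 1.5 times the counts that were recomputed: higher and lower calls, the switched-off, persisted, came-on, recovered and late-fall IDs, the calls of each phase list between 5 h and 12 h, and the lower calls among the 55 abundant IDs. Other counts were not recomputed. That test called 217 IDs higher and 400 lower; the course counts became 88 switched off, 155 persisted, 48 came on, 81 recovered and 117 late falls; the lists had 2 higher and 6 lower for G1, 3 and 7 for S and 1 and 6 for G2M; and 17 of the 55 abundant IDs were lower. With 1 library left out, the counts ran from 1266 to 1495 higher and from 1341 to 1849 lower, the switched-off IDs from 239 to 373, the lower calls of the G1 list from 33 to 52 and those of the S list from 27 to 37; the lowest of these 3 came without 5 h replicate 3. The log2 values ran from -6.89 to -6.08 for ENSG00000125735.11, -6.16 to -5.69 for ENSG00000164400.6, 3.86 to 4.31 for ENSG00000113088.6 and 3.80 to 8.66 for ENSG00000267168.1. The value of 8.66 came without 5 h replicate 3, which left that ID no 5 h count, so it depends on the prior count. More IDs were higher than lower with DESeq2, the authors' size factors, limma on the log2 table, the 6 libraries alone, at least 50 counts in 3 libraries and without 5 h replicate 3, while the higher share of calls stayed between 43% and 53.9% outside glmTreat, where it was 35.2%. With the replicate number as a block, 1564 IDs were higher and 1809 lower. The numbers do not pair the libraries by any label, and same-numbered 5 h and 12 h libraries deviated from their group means with correlations of -0.0432, -0.0557 and -0.0637 across IDs. Fits of the 6 libraries alone give no courses, and the filter of 50 counts and the log2 table leave some printed IDs untested.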
